A study of Homo sapiens with 6 samples.

Results

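The nuclear genes that build the mitochondrial ribosome and carry proteins into mitochondria were examined on the arrays of the 1 h time point. Probe sets annotated with a single gene symbol of the MRPL, MRPS, TIMM or TOMM families, or of HSPD1, HSPE1 or HSPA9, were taken, and a gene with several of them was represented by the one with the highest mean over the arrays. This gave 70 genes, read by 93 probe sets, of 11963 genes on the array. By symbol they are 31 proteins of the large and 20 of the small ribosomal subunit, 11 proteins of inner membrane import, 5 of outer membrane import and 3 matrix chaperones. The symbols were given by family: MRPS18A and MRPS30 are known to sit in the large subunit. The probe sets of TIMM23, the channel of the presequence pathway, carry several symbols and were not used.

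The cells were SH-SY5Y, a neuron-like line derived from a human neuroblastoma. Of the 6 arrays 3 hold cells exposed for 1 h to free bilirubin at 140 nM (Bf 140 nM), the share of unconjugated bilirubin that albumin does not bind, given in DMSO, and 3 cells of the same line exposed for 1 h to the solvent alone (DMSO 0.6%). The flasks were separate and the replicates biological, and the titles number them 1 to 3 in both groups. All values below are deposited log2 values of Affymetrix probe sets after variance-stabilizing normalization, so 1 unit stands for a 2-fold change where the signal is well above background and understates the change where it is dim. A difference in level between probe sets is not read as a difference in the amount of RNA. The line's noradrenergic markers were bright, with 9 of 11 above the median probe set and a mean between 11.25 and 11.54 on the 6 arrays. Of 11 mesenchymal or Schwann cell markers, 5 lay above that median, with a mean between 8.32 and 8.58.

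Mitochondria keep a small genome that encodes core subunits of the respiratory chain, and a dedicated ribosome translates these mRNAs. All proteins of that ribosome are encoded in the nucleus, made in the cytosol and imported. The TOM complex admits precursors through the outer membrane, the TIM23 complex moves those with a presequence into the matrix with the help of HSPA9 (mortalin, the mitochondrial Hsp70), the TIM22 complex inserts carrier proteins, and small TIM chaperones escort hydrophobic precursors across the space between the membranes. HSPD1 (Hsp60) and HSPE1 (Hsp10) form the chaperonin that folds proteins in the matrix, and both are classical reporters of protein stress in mitochondria.

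HSPD1 and HSPE1 are neighbours that start in opposite directions. In the RefSeq promoter table (GRCh38.p14) HSPD1 has 2 starts, and 104 bases separate the nearer one from the start of HSPE1. This stretch is shown because one piece of DNA lies upstream of both chaperonin genes. It is followed by the 120 bases upstream of TOMM20, a receptor of the TOM complex, and of MRPL20, MRPL57 and MRPS31, the ribosomal genes that differed most between replicate numbers below. Capitals mark the letters GCGCANGCG, a core of the NRF1 site, CCGGAAG, a core of ETS sites such as that of GABPA, and CACGTG, the E-box, on either strand. NRF1 and GABPA are known regulators of nuclear genes for mitochondria.
HSPE1, chr2:197500275-197500378, plus strand: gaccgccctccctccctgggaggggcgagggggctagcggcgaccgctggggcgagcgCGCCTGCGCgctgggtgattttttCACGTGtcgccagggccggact
TOMM20, chr1:235128838-235128957, minus strand: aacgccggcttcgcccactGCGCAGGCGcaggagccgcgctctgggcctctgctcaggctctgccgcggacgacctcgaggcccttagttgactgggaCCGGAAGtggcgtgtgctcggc
MRPL20, chr1:1407294-1407413, minus strand: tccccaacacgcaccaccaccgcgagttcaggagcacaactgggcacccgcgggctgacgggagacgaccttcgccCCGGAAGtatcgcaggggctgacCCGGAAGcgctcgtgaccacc
MRPL57, chr13:21176538-21176657, plus strand: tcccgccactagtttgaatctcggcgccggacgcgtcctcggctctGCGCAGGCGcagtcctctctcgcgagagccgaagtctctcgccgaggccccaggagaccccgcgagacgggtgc
MRPS31, chr13:40771191-40771310, minus strand: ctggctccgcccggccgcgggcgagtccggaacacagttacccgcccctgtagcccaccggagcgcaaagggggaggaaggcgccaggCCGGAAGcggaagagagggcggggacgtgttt

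Of the 70 genes, 63 had a promoter window in that table, with 76 windows of 250 bases before and 50 after a start. The ETS letters were in 36.8% of these windows, against 10.3% of all 35116 windows and 13.1% of the 14058 windows of genes on the array. The NRF1 letters were in 21.1%, against 7.52% and 10.2%. The letters ATGGCGGC, a core of the YY1 site that can also be a start codon followed by GCGGC, were in 19.7%, against 3% and 4.49%, and the E-box was in 14.5%, against 7.26% and 8.76%. The windows of HSPD1 and HSPE1 overlap, so a match can be counted in both. By gene, 26 of the 63 held the ETS letters, among them TOMM20, TOMM22, TOMM34 and TOMM70, and 15 held the NRF1 letters, among them HSPD1, HSPE1, TOMM20, TOMM34 and TOMM40. Letters of stress-responsive sites were in fewer of these windows, but were not all below the background. TTGCATCA, a composite site of ATF4 and C/EBP, was in the window of TIMM22 alone (1.32% of windows, against 0.866% and 0.662%). TGACGTCA, the CRE, was in that of MRPL4 alone (1.32%, against 1.85% and 2.58%). GAANNTTC, a core of the heat shock element, was in 5 genes including HSPD1 (7.89% of windows, against 6.77% and 5.4%). These matches describe letters and not binding.

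After 1 h of Bf 140 nM none of the 70 genes passed the test in either direction. At an adjusted p under 0.10 (limma, Benjamini-Hochberg over all probe sets), 0 were higher and 0 lower, as were 0% and 0% of all 22215 probe sets, and all 70 had an adjusted p = 1.00 from limma. With the replicate number as a block 0 passed again, with 0% of all probe sets. At an unadjusted p under 0.05 limma gave 0 of the 70, against 0.099% of all probe sets, and with the block 0 of the 70, against 1.22% (270 probe sets). Shares of that size would give about as few among 70 genes. Both shares lie below the 0.05 that this threshold gives on average where nothing differs. The fit without the block counts the spread between replicate numbers as error, which makes its test strict here. The median difference was 0.04 log2, against 0.01 for all genes, and the range ran from -0.24 for TIMM10B to 0.16 for MRPL58. In none of the 70 did the values of the groups fail to overlap, where Bf lay wholly above DMSO in 1.81% and wholly below in 0.577% of all genes.

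The intervals show how large a change could have been missed for each probe set taken alone, and do not cover all 70 genes jointly. The 95% confidence interval lay within a 2-fold change in either direction for 66 of the 70 genes and within 1.5-fold for 46, and the exceptions at 2-fold were MRPL20, MRPL57, MRPS31 and TOMM22, whose arrays were spread most widely between replicate numbers. With the replicate number as a block all 70 intervals lay within 1.5-fold, the lowest bound being -0.53 for TIMM10B and the highest 0.36 for MRPL58. The median distance from estimate to bound over the 70 genes was 0.43 log2 without the block and 0.20 with it. Intervals below are without the block unless stated. The pairs of that block are the arrays with the same number in their titles. The sources name no pairing, and the choice to use these numbers rested on the correlation of these same arrays.

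**Figure D1:**
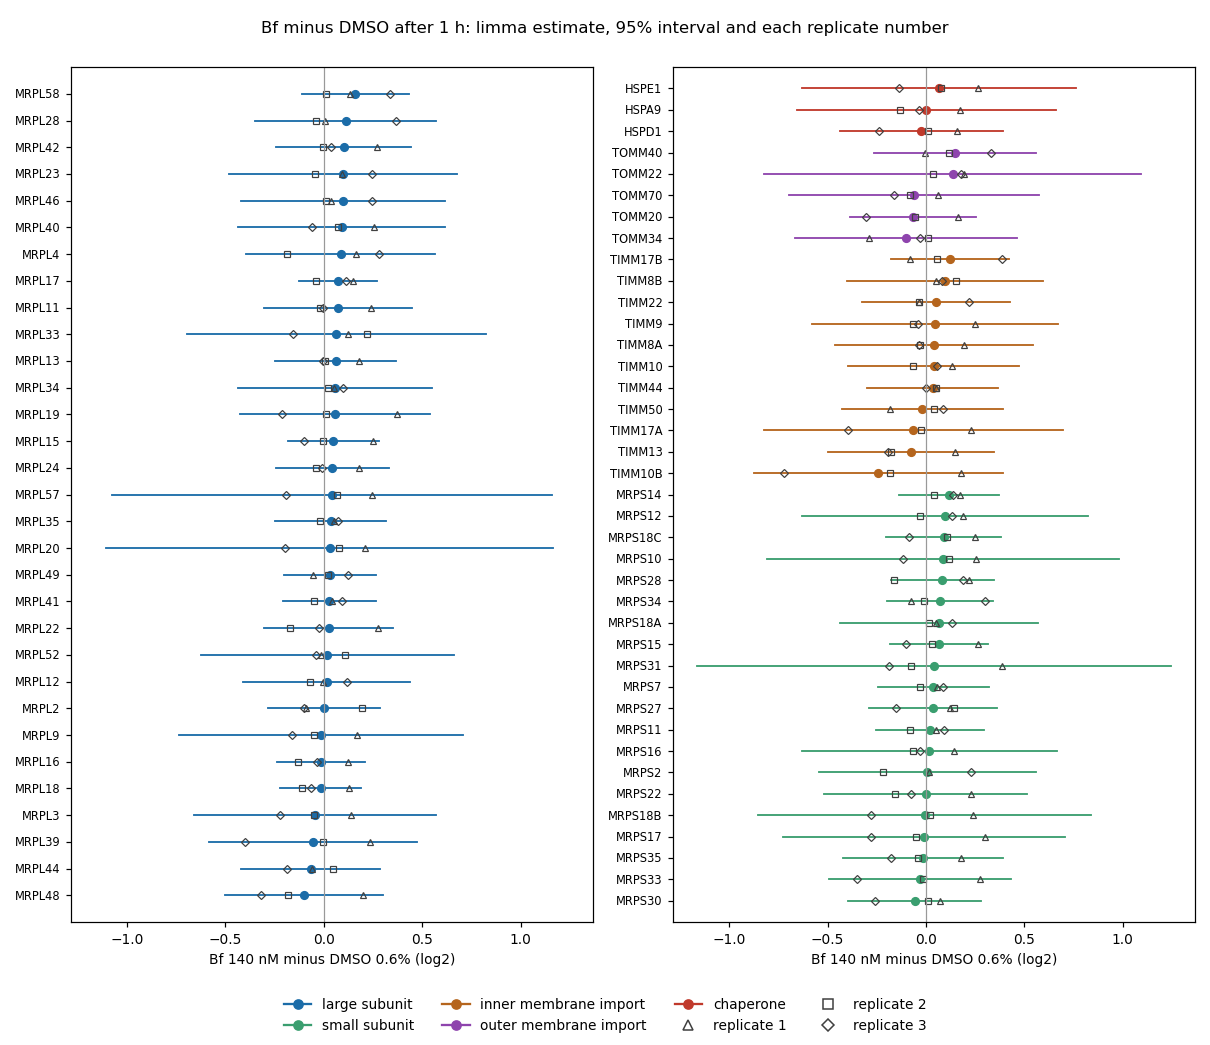
Bf 140 nM minus DMSO 0.6% at 1 h, in log2 units, for each of the 70 genes, as the limma estimate over 3 arrays per group (filled circle) with its 95% confidence interval (line), and for replicate numbers 1, 2 and 3 alone (open triangle, square and diamond). Estimates run from -0.24 for TIMM10B to 0.16 for MRPL58, and every interval crosses 0.

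The sign of the differences followed the replicate number. Bf was above DMSO on average in 49 of the 70 genes, where this held for 58.1% of all genes and 54.6% of genes above the median level, to which 65 of the 70 belong. In replicate 1 alone 59 of the 70 were positive, with a median of 0.15 log2, whereas in replicate 2 it was 30 with a median of -0.02, and in replicate 3 it was 28 with a median of -0.03. Among the genes above the median level, 4873 of 6852 were positive in replicate 1, 2778 in replicate 2 and 2944 in replicate 3. The median over the 70 genes became -0.02 when Bf replicate 1 was left out, -0.01 when Bf replicate 3 was, and -0.01 when DMSO replicate 2 was. It was 0.10 when Bf replicate 2 was left out, 0.08 for DMSO replicate 3 and 0.04 for DMSO replicate 1. These 6 values come from fits without the pairing, so leaving out 1 array also unbalances the replicate numbers. With both replicate 3 arrays left out, which keeps the pairs whole, the median was 0.05. Positive in all 3 replicate numbers were 8 of the 70, namely MRPL34, MRPL46, MRPL58, MRPS14, MRPS18A, TIMM44 (at 0.00 in replicate 3), TIMM8B and TOMM22, where 11.1% of all genes and 8.16% of genes above the median level did so. Negative in all 3 were 0, where 5.17% of all genes and 4.45% of those above the median level were. The other probe sets of MRPS14, MRPS18A and TIMM44 were not positive in all 3.

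The chaperones of the matrix differed between Bf and DMSO by less than the spread between arrays. HSPD1 was at 13.76, 13.62 and 13.89 on the Bf arrays of replicates 1, 2 and 3 and at 13.61, 13.61 and 14.13 on the DMSO arrays. The groups overlapped, and the difference was -0.02 log2 (95% confidence interval -0.44 to 0.39). HSPE1 was at 12.17, 12.17 and 12.73 in Bf and at 11.90, 12.09 and 12.86 in DMSO, a difference of 0.07 (-0.63 to 0.76). In both genes the replicate 3 arrays were the highest of their group, whether bilirubin was present or not. HSPA9, which pulls precursors through the inner membrane, was at 11.87, 11.04 and 11.77 in Bf and at 11.70, 11.17 and 11.81 in DMSO, a difference of 0.00 (-0.66 to 0.66). Here the replicate 2 arrays were the lowest in both groups. With the replicate block the intervals narrowed to -0.23 to 0.18 for HSPD1, -0.14 to 0.27 for HSPE1 and -0.19 to 0.20 for HSPA9.

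At the outer membrane, TOMM40, the channel of the TOM complex, was at 10.10, 10.07 and 9.85 in Bf and at 10.10, 9.95 and 9.52 in DMSO, a difference of 0.15 log2 (95% confidence interval -0.26 to 0.56). It was -0.01, 0.12 and 0.33 in replicates 1, 2 and 3, so most of it lay in the last. TOMM20 differed by -0.06 (-0.39 to 0.26), with 0.16, -0.06 and -0.30 by replicate number. TOMM22, which links the receptors to the channel, differed by 0.14 (-0.82 to 1.09), and with the block the interval was -0.05 to 0.32. TOMM34, a cytosolic cochaperone of precursors, differed by -0.10 (-0.67 to 0.46), and TOMM70, a receptor for carrier proteins, by -0.06.

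Among inner membrane proteins TIMM17B, a part of the TIM23 channel, differed by 0.12 log2 (-0.18 to 0.42) and its relative TIMM17A by -0.06 (-0.82 to 0.69). TIMM44, which tethers HSPA9 to the channel, differed by 0.03, TIMM50, its receptor in the space between the membranes, by -0.02, and TIMM22, the channel for carriers, by 0.05. None of these values was larger than the spread between arrays. TIMM50 was read below the median level of the array, at a mean of 7.59 in Bf and 7.61 in DMSO. The small TIM chaperones gave 0.04 for TIMM8A, 0.10 for TIMM8B, 0.05 for TIMM9, 0.04 for TIMM10 and -0.07 for TIMM13. TIMM10B, a small TIM bound to the TIM22 complex, had the lowest difference of all 70, at 8.84, 8.54 and 7.80 in Bf and 8.66, 8.72 and 8.52 in DMSO. Its -0.24 (-0.88 to 0.39) rested on the Bf array of replicate 3, because the differences by replicate number were 0.18, -0.18 and -0.72, and without that array it was 0.05. The exact two-sided permutation test over the 6 arrays gave p = 0.7 for TIMM10B, where 0.1 is the smallest that 3 against 3 arrays allow.

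Among ribosomal proteins MRPL58, a peptidyl-tRNA hydrolase that is built into the large subunit and can free stalled ribosomes, had the largest positive difference. It was at 10.84, 10.66 and 10.74 in Bf and at 10.70, 10.65 and 10.40 in DMSO, a difference of 0.16 log2 (-0.11 to 0.43) with an exact two-sided permutation p = 0.2 and an overlap of the groups. MRPS14 differed by 0.12 (-0.14 to 0.37) and MRPL17 by 0.07 (-0.12 to 0.27). The other probe set of MRPS14, also above the median level of the array, gave -0.03. Lower values were found for MRPL48, at -0.10 (-0.50 to 0.30) and MRPL44, at -0.07 (-0.42 to 0.29). MRPL44 was read below the median level of the array. The 31 large-subunit genes had a median of 0.04 and a range of -0.10 to 0.16, and the 20 small-subunit genes a median of 0.04 and a range of -0.06 to 0.12. The medians were 0.04 for the 11 TIMM genes, -0.06 for the 5 TOMM genes and 0.00 for the 3 chaperones. TOMM20 and TOMM70 were negative on the probe sets used, but their other probe sets gave 0.06 and 0.05.

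**Figure D2:**
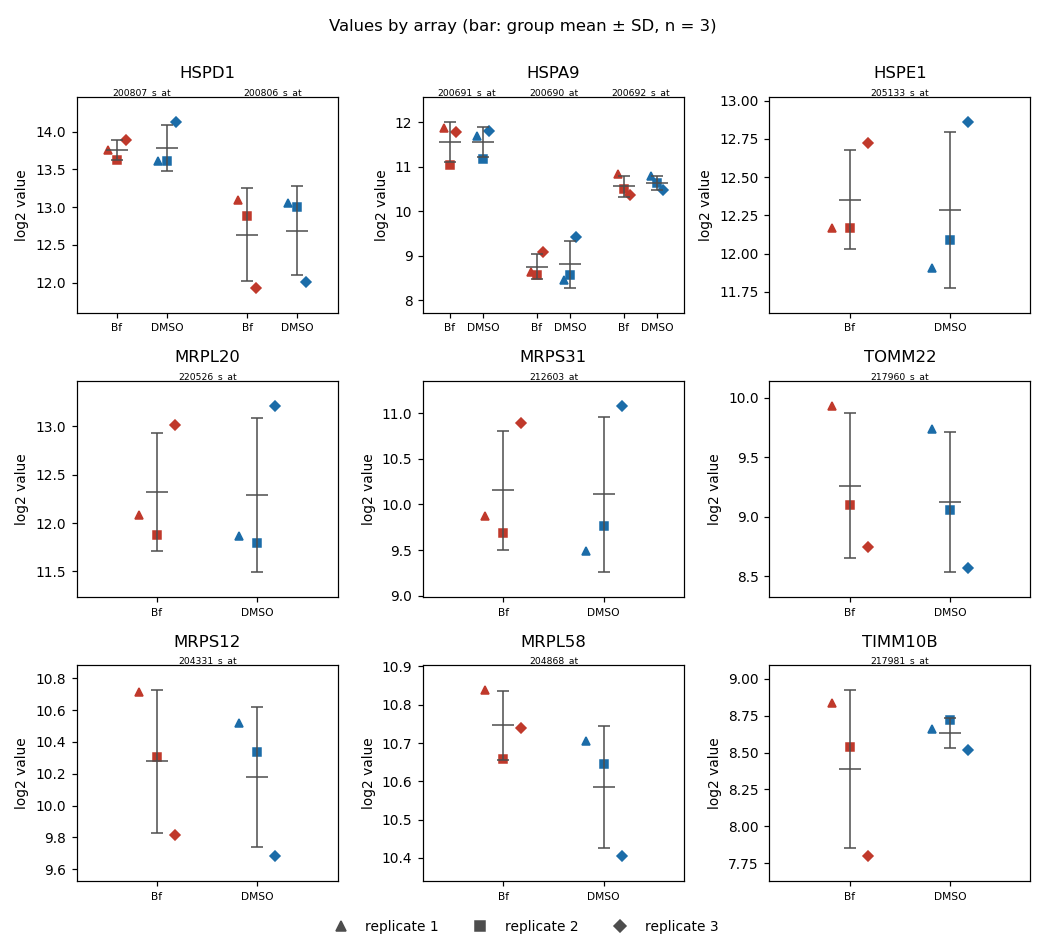
Log2 value on each array for 9 genes in Bf 140 nM (red) and DMSO 0.6% (blue), with the replicate number as the symbol and the group mean ± SD (n = 3) as the bar. HSPD1 and HSPA9 are shown with each of their probe sets, named above the points. The replicate number separates the points more than the treatment does in HSPE1, MRPL20, MRPS31, TOMM22 and MRPS12, and the replicate 3 arrays of HSPD1 lie above the others on one probe set and below them on the other.

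The level of these genes differed between replicate numbers much more than between treatments. Each number holds 1 Bf and 1 DMSO array, and a limma F test over the 3 numbers, with treatment as a covariate, called 49 of the 70 genes (70.0%) at an adjusted p under 0.10. It called 44.6% of all probe sets, 44.2% of all genes and 61.1% of the genes above the median level. As 65 of the 70 genes lie above that median, the last is the closer comparison, and 46 of these 65 (70.8%) were called. The pooled SD within a group had a median of 0.25 log2 over the 70 genes, against 0.16 for all genes and 0.22 for those above the median level. This F test describes these 6 arrays, of which the replicate 3 arrays were known to stand apart.

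Of the 49 called genes 30 were highest in replicate 3, 18 in replicate 1 and 1 in replicate 2. Relative to the mean of replicates 1 and 2, replicate 3 was higher in 33 and lower in 16 of the called genes. Of the 65 members above the median level 32 were called as higher and 14 as lower. Of all 6852 genes above that level 31.8% and 29.3% were. With each array shifted to one median the split of the called genes among the 70 was 39 to 10. That shift moved the median of all genes from -0.05 to 0.15 log2, and that of the 70 from 0.10 to 0.30. With quantile normalization the split was 30 to 14. The median was then 0.0116 for the 70 genes and 0.0414 for all genes, so the 70 no longer lay above all genes. For genes above the median level, the closer comparison, it was not computed with this normalization. The sign changed under this shift or under quantile normalization in 15 genes, of which 2 (MRPL42 and MRPS30) were called, and the 22 genes that differed by more than 0.5 log2 did not. Over the 70 genes 31.4% differed by more than 0.5, against 16.3% of all genes and 25.4% of those above the median level.

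MRPS31, MRPL20 and MRPL57 stood highest in replicate 3. MRPL20 was at 12.08, 11.87 and 13.02 on the Bf arrays of replicates 1, 2 and 3 and at 11.87, 11.79 and 13.21 on the DMSO arrays. Replicate 3 was 1.21 log2 above the other arrays (adjusted p = 6.52e-06 from the limma F test), with no array of replicates 1 and 2 near it. MRPS31 was at 9.88, 9.69 and 10.89 in Bf and at 9.49, 9.76 and 11.08 in DMSO, with replicate 3 higher by 1.28 on this probe set, and MRPL57 was higher by 1.19. MRPS10, a protein of the small subunit, was higher by 0.94. The same direction held for both Bf and DMSO arrays in each of these 4 genes.

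Other members went the opposite way on the same arrays. TOMM22 was at 9.93, 9.10 and 8.75 in Bf and at 9.74, 9.06 and 8.57 in DMSO, so replicate 1 was the highest and replicate 3 the lowest in both groups. Replicate 3 lay 0.80 log2 below the mean of replicates 1 and 2. MRPS12, the relative of the bacterial decoding protein S12, was at 10.71, 10.31 and 9.81 in Bf and at 10.52, 10.34 and 9.68 in DMSO, and replicate 3 was lower by 0.72. MRPL23 fell by 0.55 in the same comparison. Within the TOM complex the directions were mixed, with TOMM70 higher in replicate 3 by 0.65 and TOMM40 lower, at -0.37. The cytosolic TOMM34 was lower as well, at -0.54. The small TIM chaperones TIMM8A, TIMM8B and TIMM9 were called and highest in replicate 3, by 0.50, 0.48 and 0.62, and TIMM10B was called and lower, at -0.53. TIMM10 and TIMM13 were called through a low replicate 2. The means of TIMM10 were 11.04, 10.59 and 10.99 in replicates 1, 2 and 3, and those of TIMM13 were 11.95, 11.58 and 11.98.

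HSPA9 separated replicate 2 instead. Its mean was 11.78 in replicate 1, 11.10 in replicate 2 and 11.79 in replicate 3. The fall of 0.68 log2 from replicate 1 to replicate 2 was seen in both groups. Of the 49 called genes 25 were lowest in replicate 2 and 16 in replicate 3. Without both replicate 3 arrays, a comparison of replicates 2 and 1 by limma called 13 of the 70 genes, all lower in replicate 2. It called 12.9% of all genes and 9.01% as lower, and the share among genes above the median level was not computed. Called or not, replicate 2 was below replicate 1 in 57 of the 70 genes. The same held in 4597 of 6852 genes above the median level and in 6562 of all 11963.

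**Figure D3:**
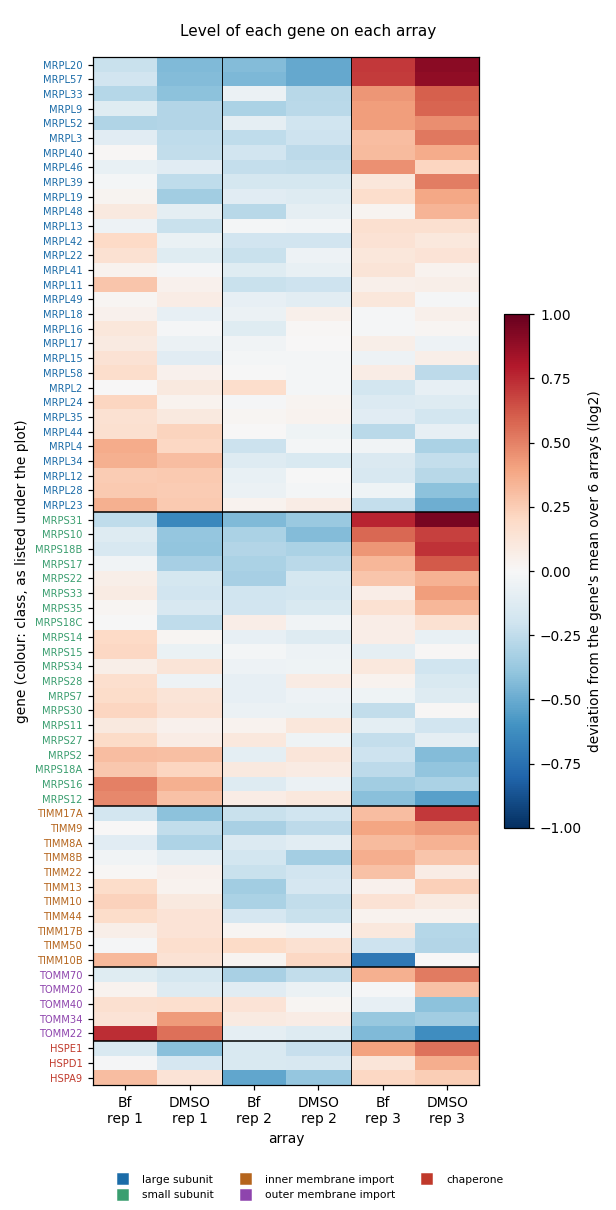
Deviation of each of the 70 genes (rows, grouped by class and ordered by replicate 3 minus the mean of replicates 1 and 2) from its mean over the 6 arrays (columns, ordered by replicate number), on a log2 scale that is capped at -1 and 1. The Bf and DMSO arrays of one replicate number have similar colours, and replicate 3 is high for MRPL20, MRPL57 and MRPS31 and low for TOMM22 and MRPS12.

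The control probe sets for RNA quality and the means of the marker lists also differed between replicate numbers. The actin control was brighter at its 3′ than at its 5′ probe set by 1.49 and 1.90 log2 on the Bf and DMSO arrays of replicate 3, against 0.10 to 0.50 on the others, and that of GAPDH by 1.03 and 1.15, against 0.20 to 0.25. The mean of the 11 noradrenergic markers was 11.52 and 11.54 in replicate 3 and 11.25 to 11.42 in the other arrays. Of these 11 genes, 9 of which lie above the median level, 10 were called by the F test. The share called was 44.2% over all genes and 61.1% over genes above the median level. Replicate 3 was higher in 7 of the 10 and lower in 3. The mean hides this, since GAP43 was at 1.13 and PHOX2A, GATA2 and HAND2, regulators of the noradrenergic state, at -0.61, -0.51 and -0.61. The mean of the 11 mesenchymal or Schwann cell markers was 8.32 and 8.40 in replicate 3 and 8.51 to 8.58 elsewhere. Of these 11 genes 4 (36.4%) were called, all lower in replicate 3, a smaller share than the 44.2% of all genes. An array gives no marker a value of 0. The part of RNA quality or of cell state in the replicate differences was not tested.

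Probe sets of one gene often disagreed on the direction of replicate 3. Of the 70 genes 17 were read by more than 1 probe set, 40 probe sets in all, and in 11 of these 17 (64.7%) the sign of replicate 3 minus the mean of replicates 1 and 2 differed between them. Over all 4310 such genes of the array it did in 53.3%. Among probe sets that were themselves called by the F test, it differed in 7 of 10 members with several, against 43.0% of 1790 genes. With each array shifted to one median the count was 5 of 10, against 44.8% of 1950 genes, and with quantile normalization it was 7 of 9, against 47.0% of 1729.

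The gap was widest for HSPD1. Its brighter probe set was 0.36 log2 higher in replicate 3, and the other was lower, at -1.04, with 13.09, 12.88 and 11.93 on the Bf arrays and 13.06, 13.00 and 12.01 on the DMSO arrays. Both probe sets were called, in opposite directions. The 3 probe sets of HSPA9 gave 0.34, 0.70 and -0.27, and the low level of replicate 2 was seen clearly on the brightest of them, where replicate 2 minus replicate 1 was -0.68, against 0.02 and -0.24 on the others. The probe sets of MRPS18B gave 0.88 and -0.45, those of TOMM70 0.65 and -0.34, and those of MRPS18A -0.49 and 0.43. MRPS31, with the largest value above, rested on 1 of 2 probe sets of similar level. The other was at 10.05, 9.90 and 10.25 in Bf and at 9.86, 9.98 and 10.05 in DMSO, and its 0.20 was not called (adjusted p = 0.249 from the limma F test). MRPL20 rested on 1 of its probe sets as well, since the other gave -0.01 at a mean level below the median of the array. MRPL57 was higher on all 3, by 1.19, 0.51 and 0.77, and TIMM8A on both, by 0.50 and 0.75.

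**Figure D4:**
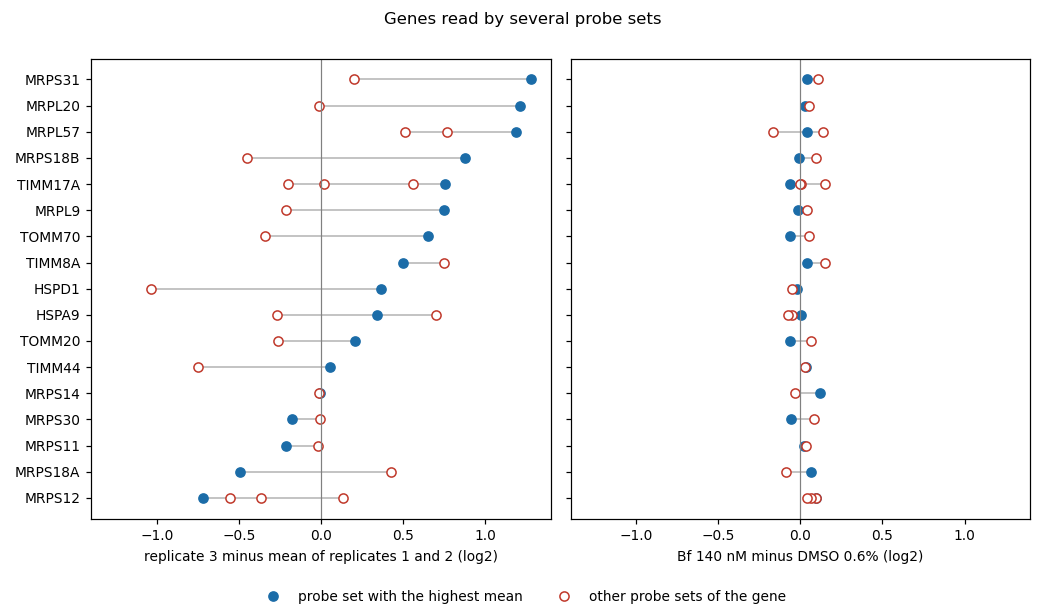
Each probe set of the 17 genes with more than 1, as replicate 3 minus the mean of replicates 1 and 2 (left) and as Bf 140 nM minus DMSO 0.6% (right), both in log2 and on the same scale. Filled circles are the probe sets with the highest mean, open circles the others, and grey lines join the probe sets of a gene. Probe sets of HSPD1 lie at 0.36 and -1.04 on the left and at -0.02 and -0.05 on the right.

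In the treatment comparison the probe sets of a gene lay closer together. Their signs differed in 10 of the 17 genes (58.8%), against 57.9% of all genes with several, but the values were small. The widest gap was that of MRPL57, from -0.17 to 0.14 log2, followed by TIMM17A, from -0.06 to 0.15, and MRPS18A, from -0.09 to 0.07. Both probe sets of HSPD1 gave values near 0, at -0.02 and -0.05. Of the 70 genes 5 (MRPL35, MRPL41, MRPL44, MRPS22 and TIMM22) were read by a probe set of the _x_at type, which may also bind other transcripts, and their values are uncertain for that reason.

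Genes that work beside these did not pass the test between Bf and DMSO either. Of 4 further proteins of the mitochondrial ribosome or its membrane partner, 0 were higher and 0 lower by limma, with a median of -0.00 log2, and DAP3, a GTP-binding protein of the small subunit, was at -0.08 (95% confidence interval -0.47 to 0.32) and GADD45GIP1 at 0.05. Of 15 genes of ribosome assembly 0 passed, with a median of 0.00, MTERF3 at 0.09 and the helicase DDX28 at 0.08. Of 10 mitochondrial translation factors 0 passed and the median was -0.02, with the release factor MTRF1L at 0.05 and GUF1 at -0.06. The intervals of these named genes all crossed 0. MTRF1L was read by an _x_at probe set below the median level of the array, at a mean of 7.23 in Bf and 7.18 in DMSO.

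Of 12 import and assembly genes outside the families above, 0 passed and the median was 0.00, with GFER, the oxidase that recycles the disulfide carrier for small TIM proteins, at 0.05 and SAMM50, which inserts barrel proteins into the outer membrane, at -0.09. Of 11 proteases and stress chaperones 0 passed and the median was -0.02, and both parts of the ClpXP protease were among them, CLPX at -0.07 (-0.36 to 0.21) and CLPP at -0.08 (-0.44 to 0.28). Of 14 genes of mitochondrial transcription and its nuclear regulators 0 passed and the median was -0.00. TFB2M, a transcription factor of mitochondria, was at -0.14 (-0.68 to 0.39) and the coactivator PPARGC1A at 0.05. PPARGC1A was dim, at a mean of 6.11 in Bf and 6.05 in DMSO, so its difference says little. The median over all probe sets was 7.89.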

How the data were processed

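Labelled RNA of 6 flasks was hybridized to Affymetrix GeneChip human expression arrays. The authors computed cell intensities with GCOS, applied variance-stabilizing normalization in R 2.5.0 and deposited log2 values, one column per array. The sources used here do not give how probes were summarized. The base of the logarithm is not stated either and was taken as 2, which the span of values fits, and the authors' Present-call filter was not applied. GEO's platform annotation gave 1 symbol to 19064 of the 22215 probe sets, several to 1043 and none to 2108, and 62 controls were left out. Promoter sequences are RefSeq's.

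Fits across all genes used limma 3.58.1 in R 4.3.3 (lmFit, eBayes) on all 22215 probe sets with Benjamini-Hochberg adjustment. The study's SAM was not run and its FDR level of 0.10 was kept. The fits were tested on simulated arrays without spread between replicate numbers other than a planted change. The replicate test recovered 0 of 200 planted 1.5-fold changes and 137 of 200 2-fold changes. The treatment fit without the block recovered 138 and 190. The real arrays spread more between replicate numbers, so the last 2 counts do not carry over to them. Nor do the counts of the replicate test, since only 200 of 22215 simulated probe sets were changed. On the real arrays that test called 44.6% of probe sets, and the cut for an adjusted p depends on that share. The number of arrays limits the precision. The members, lists and tests were chosen with earlier results of these data known. Named genes are the chaperones and import proteins, the 5 smallest p in each direction, the 5 smallest p over replicate number, the 3 highest and 3 lowest in replicate 3, the 3 with the widest gaps between probe sets, and 2 per further list. Genes named outside this rule were chosen after their values were seen.

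After subtracting group means, the Bf and DMSO arrays of numbers 1, 2 and 3 correlated at 0.725, 0.783 and 0.880, so the numbers were taken as pairs in the block alternative. The sample descriptions carry another number, which the Bf and DMSO arrays of one title number also share. The sources do not say what either number marks.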

Additional observations from a re-analysis of the deposited data

How the results depend on the processing

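The count of members called between Bf and DMSO was 0 with each alternative: the replicate block, quantile normalization, one median for each array, the filter at the median level, the mean of all probe sets, trend and robust eBayes, array weights, adjusted p under 0.05 and 0.20, and each array left out. The median difference was 0.04 log2 with the replicate block, 0.02 with one median for each array, 0.07 with array weights (whose estimate stopped before its tolerance), and -0.02 to 0.10 with each array left out. The count called over replicate number was 49, and 38 to 50 with each array left out. It was 13 without both replicate 3 arrays, an alternative chosen after seeing the data that compares replicates 2 and 1 alone. The median of replicate 3 minus replicates 1 and 2 was 0.10 log2, and became 0.0116 with quantile normalization (0.0414 for all genes), 0.30 with one median for each array and 0.0545 with the mean of all probe sets. It was 0.085 to 0.138 with each array left out. The cause of these shifts was not tested.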

Other observations

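The partner genes also differed between replicate numbers, in both directions, as values named after they were seen. Relative to the mean of replicates 1 and 2, replicate 3 was higher by 1.09 log2 for MTIF2, the initiation factor of mitochondrial translation, by 0.98 for DNAJC15, a cochaperone of import, by 0.96 for YME1L1, a protease of the inner membrane, and by 0.79 for TFAM, which packages mitochondrial DNA. It was lower for GABPA, at -0.93, and for MYC, at -0.83. Each value is that of the gene's brightest probe set, which is 1 of 13 for YME1L1 and 1 of 3 for TFAM. The one of TFAM is of the _x_at type. Whether the other probe sets share these directions was not tested. The F test over replicate number called 10 of the 14 transcription and regulator genes (71.4%), 8 of the 11 proteases and stress chaperones (72.7%), 8 of the 12 import genes (66.7%), 8 of the 15 assembly genes (53.3%), 4 of the 10 translation factors (40.0%) and all 4 of the list that holds DAP3, PTCD3, GADD45GIP1 and the insertase OXA1L. Of all genes above the median level 61.1% were called.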
